A study of Mus musculus with 22 samples.

Results

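MS023 is a small molecule inhibitor of the type I protein arginine methyltransferases. The comparison described here set the 2 libraries of mouse embryonic stem cells (ESCs) labelled MS023 against the 2 libraries labelled NC, which makes 4 of the 22 libraries in the series, and covered every gene in the table. The libraries were taken by their titles. All 22 came from E14, a mouse ESC line, and the study's methods describe E14 cells grown in serum with LIF. The MS023 cells carried no other stated treatment, and the labels give the group name NC without further explanation, with no vehicle, dose or time for either group. The other 18 libraries, 2 for each of 9 other compounds (Bromosporine, Chaetocin, CPTH2, DZNep, Garcinol, IOX1, OICR, UNC0379 and Valproate), served to estimate the spread between libraries and as a second reference. Nothing in the labels says that the libraries of a group came from separate cultures, so the p-values below measure only the spread between these libraries, which may be technical.

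Type I arginine methyltransferases place asymmetric dimethylarginine on proteins, with S-adenosylmethionine as the methyl donor. Prmt1 does most of this work in mammalian cells, Carm1 and Prmt6 methylate histone H3, and Prmt2, Prmt3 and Prmt8 have narrower roles. Beside histones, the best known substrates are RNA-binding proteins rich in arginine and glycine (RGG motifs), among them splicing and translation factors. The question of the comparison is therefore which transcripts were at a different level after a type I inhibitor was added to ESCs.

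The table holds normalized read counts for 18487 genes, rounded by the authors to whole numbers. Every library shared the median (409) and the maximum (221616), which shows that they were scaled to 1 distribution, so the depth of sequencing is unknown. A value tells a gene's place in that distribution as much as its abundance. It is not a strict rank, since different genes can share a high value, as Nanog and Hsp90aa1 did in Chaetocin replicate 2 (59405). The mitochondrially encoded genes took 2.91% to 3.10% of the summed values of a library, and 1065 to 1707 genes were at 0. The stem cell label was borne out by its markers. Pou5f1, the core pluripotency factor, was at 28606 and 29454 in NC and at 26685 in both MS023 libraries, and none of the 12 stem cell markers looked at was at 0 or was called. The 15 fibroblast feeder markers in the table summed to 938 and 1791 in NC and to 1330 and 639 with MS023, against 216019 and 216171 in NC and 197393 and 180413 with MS023 for the 12 stem cell markers. Of the feeder markers Lum was at 0 in all 4 libraries, Col1a1 measured 24 and 24 in NC against 50 and 65 with MS023, and none was called. These sums moved with Postn (474 and 559 in NC, 555 and 0 with MS023) and Col3a1 (4 and 743 in NC, 431 and 4 with MS023), which varied widely within a group. In bulk RNA, fewer cells of one kind and less RNA per cell cannot be told apart.

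Between the libraries labelled MS023 and NC, 168 of the 17275 genes tested (0.973%) were called. Of these, 67 were higher with MS023 (0.388%) and 101 lower (0.585%). A gene was called when its Benjamini-Hochberg adjusted p was below 0.05 in a limma fit of all 22 libraries and its change was over 2-fold on the log2(value + 1) scale, a scale on which the change of low genes comes out too small. The median log2 change was 1.42 among the genes that rose and -1.51 among those that fell, against -0.01 over all genes tested, and 19 rises and 20 falls were over 4-fold. Of the 168 genes, 157 were above 0 in all 4 libraries. The number of calls leaned on single libraries, since it was 45 without MS023 replicate 1, 90 without MS023 replicate 2, 28 without NC replicate 1 and 84 without NC replicate 2. A fit of the 4 libraries alone, with their own estimate of the spread, called 67 genes, of which 6 were among the 168.

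Each called gene moved the same way within replicate number 1 and within replicate number 2. In each case both MS023 libraries lay beyond both NC libraries. The fitted change is the mean of these 2 within-number changes, so the calling rule favours this agreement, which is not separate support. Over all genes tested the MS023 libraries were both above the NC libraries for 21.8% and both below for 23.6%, and 29.4% were higher and 34.0% lower within both numbers. A change over 2-fold within both numbers was seen in 52 of the 67 rises and 72 of the 101 falls. Among all genes tested, 245 (1.42%) were over 2-fold higher and 284 (1.64%) over 2-fold lower within both numbers, while 129 moved over 2-fold in opposite directions. Number 1 gave 2016 genes past 2-fold and number 2 gave 1524. The plot of the changes within each number shows the called genes along the diagonal and, along the axes, genes that moved in only 1 of the 2 numbers.

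**Figure D1:**
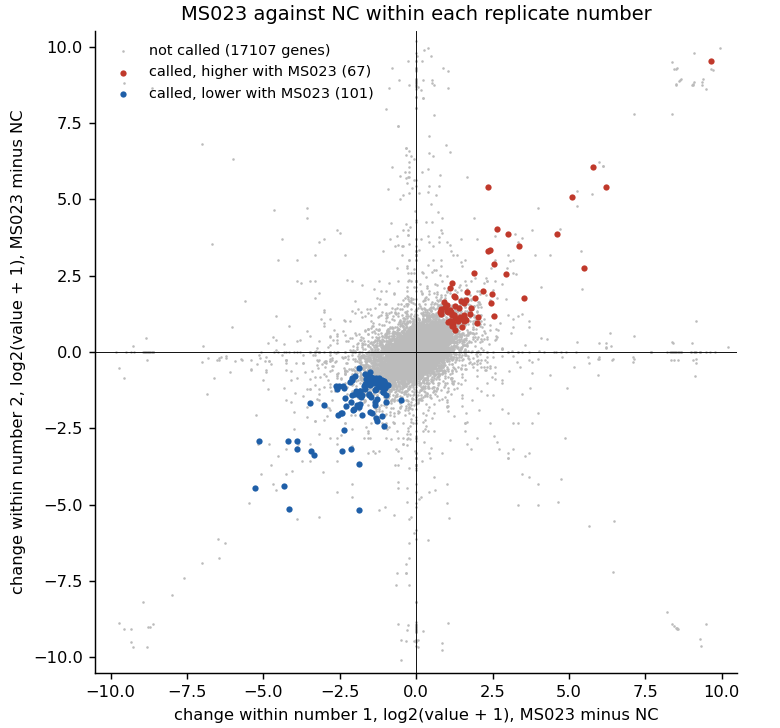
Log2 change, on the log2(value + 1) scale, of each of the 17275 genes tested between MS023 and NC within replicate number 1 (x axis) and within replicate number 2 (y axis). Each point is a gene. The 67 called rises (red) and 101 called falls (blue) all lie in the quadrants where both changes have the same sign, which the calling rule favours. Many uncalled genes (grey) lie on an axis, changed in 1 number and near 0 in the other.

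None of the 16 genes for arginine methyltransferases and their partners, the targets of MS023 among them, was called, with changes from -0.75 (Prmt8) to 0.45 (Prmt2) and a median of 0.10. Prmt1 measured 9790 and 12656 in NC against 12863 and 15350 with MS023, a log2 change of 0.34 ± 0.19 (SE; limma adjusted p = 0.46). Carm1, which methylates H3 and splicing factors, measured 6438 and 6707 in NC against 5002 and 5695 with MS023 (-0.30 ± 0.12, limma adjusted p = 0.26). Both MS023 libraries were above both NC libraries for Prmt1 and below them for Carm1, by less than 2-fold in each. Prmt5, the main type II enzyme, which makes symmetric dimethylarginine, measured 5200 and 6692 in NC against 6097 and 6471 with MS023, so its groups overlapped. Prmt8 measured 910 and 1038 in NC against 428 and 778 with MS023, and Prmt7 measured 7299 and 7368 against 5734 and 5996, with the MS023 libraries below NC in both genes. Prmt6 (1338 and 1965 in NC, 1602 and 2197 with MS023) and Prmt9 (1008 and 958 in NC, 856 and 1022 with MS023) overlapped. The deposited values measure RNA, so the methylation state of proteins was not measured here.

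The 18 genes of the S-adenosylmethionine cycle, which makes the methyl donor and clears its product, likewise held no call (median 0.03). Cth, which turns cystathionine into cysteine, came nearest and measured 5607 and 4502 in NC against 11051 and 9891 with MS023 (1.06 ± 0.28, limma adjusted p = 0.074). Against the mean of the other 9 compounds, 1 of the 18 was called higher (Cth, 1.13, limma adjusted p = 0.0046), beside 1.44% of all genes. Cbs was called lower (-1.30, limma adjusted p = 0.0090), beside 1.30%. Cbs measured 946 and 1012 in NC against 809 and 516 with MS023, and its changes with those compounds ran from 0.35 to 1.09. Mtap, which salvages methionine from the by-product of polyamine synthesis, measured 2316 and 2121 in NC against 1506 and 1558 with MS023. Its change of -0.53 passed the p threshold (limma adjusted p = 0.042) but not the 2-fold one. Ahcy, the hydrolase for S-adenosylhomocysteine, overlapped between the groups (336 and 431 in NC, 454 and 337 with MS023). Mat2a, which makes S-adenosylmethionine in ESCs, measured 10700 and 15391 in NC against 12673 and 17267 with MS023. Particl, a single-exon RNA on the strand opposite the start of Mat2a (chr6:72439051-72440610, plus strand), was called lower, from 95 and 79 to 27 and 29 (-1.60, limma adjusted p = 0.037). Particl is named after its values were seen. It overlaps Mat2a, and the library preparation named in the labels is not stated to keep strand, so reads of the overlapping stretch cannot be assigned to one or the other.

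The transcripts of the RNA-binding substrates held no call. Of 43 genes for RGG-motif proteins none was called (median 0.06), and of 48 SR and hnRNP splicing factors none was (median 0.03). Mre11a, a DNA repair nuclease whose RGG domain is a known Prmt1 substrate, measured 2258 and 2257 in NC against 1445 and 1220 with MS023, a log2 change of -0.77 that passed the p threshold (limma adjusted p = 0.0051) and stayed under 2-fold. Pabpn1, the nuclear poly(A)-binding protein, measured 6428 and 6377 in NC against 10033 and 10193 with MS023 (0.66, limma adjusted p = 0.0088), again under 2-fold. Ddx5, an RNA helicase, measured 26592 and 30736 in NC against 49312 and 53841 with MS023 (0.85 ± 0.28, limma adjusted p = 0.15). The readers and hydrolases of methylarginine (11 genes, median 0.20) held no call either. Outside these lists, and named after its values were seen, Thrap3, which encodes a splicing-associated protein rich in arginine and serine, rose from 9922 and 12145 to 22948 and 21977 (1.03, limma adjusted p = 0.0088). Thrap3 shares 46.0% of the 31-base stretches of its transcripts with other genes.

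Clustered histone genes, which encode the histones that cells make during DNA replication, were among the falls. The table lists 62, of which 43 passed the filter, and 4 of the 43 fell, against 0.585% of all genes tested: Hist1h3c, Hist1h3h, Hist1h2ag and Hist1h2bk. All 4 lie in the large histone cluster on chromosome 13 and each has 1 exon. Their usual transcripts end in a stem-loop and carry no poly(A) tail, so libraries made with oligo-dT hold only the small share that is polyadenylated, and their values were low. Hist1h3c (chr13:23744973-23745602, minus strand) measured 128 and 179 in NC against 11 and 18 with MS023, a log2 change of -3.34 ± 0.52 (SE; limma adjusted p = 0.0070). Hist1h3h (chr13:21717659-21718069, plus strand), which like Hist1h3c encodes histone H3, measured 54 and 89 in NC against 2 and 11 with MS023 (-3.55 ± 0.72, limma adjusted p = 0.023). Both H3 genes were several times lower in each MS023 library than in either NC library.

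The other pair encodes the dimer partners H2A and H2B. Hist1h2ag (chr13:22042460-22042944, minus strand), an H2A gene, measured 26 and 56 in NC against 4 and 5 with MS023 (-2.84 ± 0.52, limma adjusted p = 0.015). Hist1h2bk (chr13:22035870-22036345, plus strand), an H2B gene in the same stretch of the cluster, measured 54 and 75 in NC against 14 and 5 with MS023 (-2.77 ± 0.46, limma adjusted p = 0.0092). Histone genes are near copies of each other, and 55.2% (Hist1h3c) to 94.2% (Hist1h3h) of the 31-base stretches of these 4 transcripts recur in other genes, so how reads were split among them is uncertain.

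The 250 bases before the RefSeq start of 3 of these genes (GRCm38.p6) are given for the CCAAT box and the TATA box, elements known from histone promoters, with matches in capitals here (CCAAT or its reverse complement ATTGG, and TATAAA or TTTATA).
Hist1h3h (chr13:21717378-21717627, plus strand): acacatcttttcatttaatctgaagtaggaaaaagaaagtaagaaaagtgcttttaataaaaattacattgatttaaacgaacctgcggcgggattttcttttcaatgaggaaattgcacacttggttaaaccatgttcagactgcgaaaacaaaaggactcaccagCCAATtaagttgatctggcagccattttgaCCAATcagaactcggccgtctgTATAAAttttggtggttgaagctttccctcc
Hist1h2ag (chr13:22042950-22043199, minus strand): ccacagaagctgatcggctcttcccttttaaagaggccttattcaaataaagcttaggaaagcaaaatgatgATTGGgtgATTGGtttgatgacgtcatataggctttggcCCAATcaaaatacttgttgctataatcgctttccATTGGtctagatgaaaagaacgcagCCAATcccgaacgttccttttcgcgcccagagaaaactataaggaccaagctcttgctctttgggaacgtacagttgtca
Hist1h2bk (chr13:22035571-22035820, plus strand): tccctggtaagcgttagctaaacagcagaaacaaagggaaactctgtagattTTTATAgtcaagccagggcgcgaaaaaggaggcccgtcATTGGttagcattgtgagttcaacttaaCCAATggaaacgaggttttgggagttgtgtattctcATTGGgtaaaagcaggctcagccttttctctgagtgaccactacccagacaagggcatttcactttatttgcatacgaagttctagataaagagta
Each holds at least 2 CCAAT boxes. TATAAA lies near the start only in Hist1h3h (from base -31), Hist1h2bk has a reverse match far from it (from base -198) and Hist1h2ag has none. A CCAAT box on either strand was in 31 of the 38 tested clustered histone genes with a RefSeq window (81.6%), against 41.2% of the 12184 tested genes with one, and TATAAA was in 16 of the 38 (42.1%), against 9.18%. Among all called genes the CCAAT box was in 13 of 53 rises (24.5%) and 23 of 71 falls (32.4%). These matches describe letters in a window and do not show that a factor was bound.

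The remaining 39 tested histone genes were not called, but most lay below NC. The median over the 43 was -1.04, with -0.64 within number 1 and -1.58 within number 2, and 35 of the 43 had a fitted change below 0. Both MS023 libraries were below both NC libraries for 24 of the 43, against 23.6% of all genes, and above them for none. Hist1h2ad, an H2A gene, measured 86 and 138 in NC against 19 and 32 with MS023 (-2.10, limma adjusted p = 0.058). Hist1h4n and Hist1h4d, a pair of H4 genes, were at 20 and 25 and at 11 and 20 in NC, and at 5 and 7 and at 2 and 4 with MS023. The members with the highest values did not follow, since Hist1h2bc measured 224 and 348 in NC against 280 and 295 with MS023, and Hist3h2a measured 197 and 175 in NC against 151 and 228 with MS023. The 43 genes summed to 1597 and 2157 in NC and to 1001 and 1152 with MS023, the lowest and the third lowest sum of the 22 libraries. The median of the list over the 9 other compounds, each against the same NC libraries, ran from -0.42 (Valproate) to 0.63 (Bromosporine). Against the mean of those compounds, 11 of the 43 were called lower with MS023, beside 1.30% of all genes, and none higher.

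**Figure D2:**
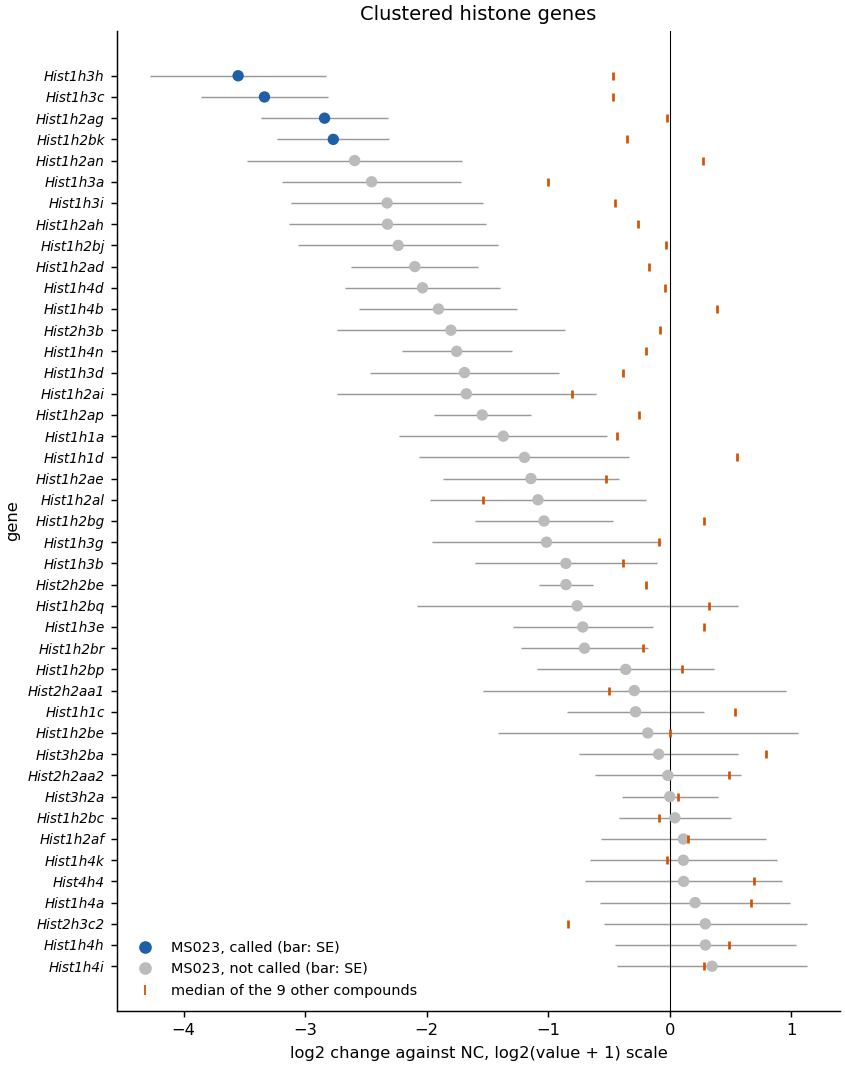
Log2 change against NC, on the log2(value + 1) scale, of the 43 clustered histone genes tested. Circles are MS023 with the SE of the fit as bars (blue, called; grey, not called) and orange ticks are the median over the 9 other compounds. The 4 called genes sit between -3.55 and -2.77, and 35 of the 43 circles lie left of 0.

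Histone genes expressed outside replication and the genes that process histone transcripts showed no call against NC. Among 11 replication-independent variants the median was -0.15. Against the mean of the other 9 compounds, 2 of the 11 were called lower, beside 1.30% of all genes. These were H1fx (-1.50, limma adjusted p = 0.019) and H2afj (-1.20, limma adjusted p = 9.3e-05). H1fx, a linker histone, measured 1866 and 2192 in NC against 533 and 809 with MS023 (-1.62 ± 0.48, limma adjusted p = 0.11), and H2afj measured 3966 and 5456 in NC against 2310 and 2527 with MS023 (-0.94, limma adjusted p = 0.010, under 2-fold). Lsm11, part of the U7 particle that cuts histone transcripts, measured 596 and 497 in NC against 361 and 359 with MS023 (-0.59, limma adjusted p = 0.10). None of the 38 genes of DNA replication (median -0.13) or the 26 of mitosis (median -0.11) was called.

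Genes of the antioxidant and detoxifying response were among the rises. NRF2 is a transcription factor that is freed when the cell meets electrophiles or oxidants and then raises enzymes that reduce quinones, make glutathione and repair oxidized peroxiredoxins. Of 19 NRF2 targets tested 3 rose, against 0.388% of all genes, and none fell: Nqo1, Srxn1 and Osgin1. Nqo1, a quinone reductase (chr8:107388225-107403206, minus strand), measured 728 and 872 in NC against 2534 and 2357 with MS023, a log2 change of 1.62 ± 0.24 (SE; limma adjusted p = 0.0062). Srxn1, sulfiredoxin, measured 1216 and 1320 in NC against 2924 and 3721 with MS023 (1.38 ± 0.32, limma adjusted p = 0.042). Osgin1, an oxidative stress-induced growth inhibitor, measured 19 and 12 in NC against 160 and 186 with MS023 (3.43 ± 0.53, limma adjusted p = 0.0069). For all 3 the values of the groups were far apart compared with the difference between libraries of a group.

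Over the whole list, these 3 included, the median was 0.47 and 16 of 19 members had a change above 0. Hmox1, heme oxygenase, measured 1699 and 1685 in NC against 2838 and 3848 with MS023 (0.97, limma adjusted p = 0.012). Gclc, the catalytic subunit of the first enzyme of glutathione synthesis, measured 1148 and 1391 in NC against 1975 and 2086 with MS023 (0.68, limma adjusted p = 0.032). Gsr (glutathione reductase) and Fth1 (the ferritin heavy chain) also passed the p threshold, at changes of 0.47 and 0.64. These 4 stayed under 2-fold and were not called. Abcc1, Tkt and Taldo1 had changes of -0.34, -0.25 and -0.01. The median of the list over the other compounds ran from -0.14 (Valproate) to 0.37 (IOX1), and Nqo1 itself was higher with IOX1 (3870 and 3240) than with MS023.

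Ptgr1 had the smallest standard error of the 15 largest rises. It encodes prostaglandin reductase, which also reduces reactive aldehydes, and measured 855 and 918 in NC against 3870 and 3644 with MS023 (2.08 ± 0.15 SE, limma adjusted p = 4.6e-05). Ptgr1 and Vmn2r9 were the only 2 of the 50 called genes of the naming rule that kept the call under all alternatives that could be run for them. Genes of related function, named after their values were seen, were also among the calls. Cbr3, a carbonyl reductase, rose from 659 and 695 to 1918 and 1478, and Htatip2, an oxidoreductase, from 152 and 123 to 310 and 362. Sqstm1, the autophagy receptor p62 that feeds back on NRF2 signalling, rose from 8309 and 7633 to 14713 and 19230. Their log2 changes were 1.31, 1.29 and 1.08 (limma adjusted p of 0.0051, 0.012 and 0.0090).

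The promoters of P2rx7, one of the largest rises, and of Nqo1 are given for the antioxidant response element, whose core was searched as TGACNNNGC on both strands. In the 250 bases before the RefSeq start (GRCm38.p6), the first of 2 RefSeq starts of P2rx7 had a reverse match. Its second start (chr5:122650133-122650382) had none, and neither did Nqo1, where the capitals mark a TATAAA. The windows of Srxn1 and Osgin1, the other called NRF2 targets, had none either. P2rx7 is not on the list of NRF2 targets. Bases further upstream were not searched, so a window without a match does not show that the gene lacks the element.
P2rx7 (chr5:122643677-122643926, plus strand): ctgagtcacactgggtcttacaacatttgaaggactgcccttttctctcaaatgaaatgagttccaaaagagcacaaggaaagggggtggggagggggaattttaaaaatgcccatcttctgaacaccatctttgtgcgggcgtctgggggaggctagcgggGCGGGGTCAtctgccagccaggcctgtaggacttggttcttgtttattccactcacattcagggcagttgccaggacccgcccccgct
Nqo1 (chr8:107403206-107403455, minus strand): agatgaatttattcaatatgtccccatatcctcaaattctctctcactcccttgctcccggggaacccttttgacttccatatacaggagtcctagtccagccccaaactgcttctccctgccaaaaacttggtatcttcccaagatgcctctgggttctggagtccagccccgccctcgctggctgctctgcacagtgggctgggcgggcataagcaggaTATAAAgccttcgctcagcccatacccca
The core was in 1625 of the 12184 tested genes with a window (13.3%), in 9 of 53 rises (17.0%), in 10 of 71 falls (14.1%) and in 3 of 14 NRF2 targets (Gclm, Txnrd1 and G6pdx). These shares are a description of letters, and binding was not measured.

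Genes of the integrated stress response, in which Atf4 raises amino acid synthesis and transport, held 1 call in 25, a rise, beside 0.388% of all genes. Cebpb, a leucine zipper factor of this response, rose from 529 and 582 to 1084 and 1448 (1.17 ± 0.19, limma adjusted p = 0.0073). Ppp1r15a, which reverses the phosphorylation of eIF2 alpha, measured 2210 and 2141 in NC against 3376 and 4325 with MS023 (0.81, limma adjusted p = 0.0067, under 2-fold). The median of the list was 0.49, with 21 of 25 members above 0. Ddit3 measured 1761 and 846 in NC against 3067 and 2930 with MS023 (1.30, limma adjusted p = 0.53), and the 2 NC libraries differed about 2-fold from each other. Against the mean of the other 9 compounds, which does not use NC, 8 of the 25 were called higher, beside 1.44% of all genes. The medians of the list against NC ran from -1.17 (DZNep) to 0.12 (Garcinol) for those compounds. Ero1l, the disulfide oxidase of the endoplasmic reticulum, was listed with the hypoxia genes and rose from 3547 and 2478 to 6785 and 6847 (1.20, limma adjusted p = 0.017). It was the 1 call among 27 genes of hypoxia and glycolysis, whose median was -0.13, again beside 0.388% of all genes called higher.

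Lipid and sterol genes gave few calls. Of 25 genes of cholesterol synthesis and uptake none was called, although 21 were above 0 (median 0.18). Hmgcs1, which makes the substrate of the rate-limiting step, measured 9529 and 11505 in NC against 17970 and 17604 with MS023 (0.76, limma adjusted p = 0.0073, under 2-fold). Dgat2, which completes triglyceride synthesis, rose from 33 and 41 to 182 and 425 (2.89 ± 0.62, limma adjusted p = 0.031). Pla2g2e, a secreted phospholipase, rose from 21 and 22 to 111 and 227 (2.83, limma adjusted p = 0.020). In both, the MS023 libraries differed about 2-fold from each other and lay well above NC. G0s2, an inhibitor of the triglyceride lipase, and Soat2, which esterifies cholesterol, were named after their values were seen. G0s2 rose from 294 and 241 to 709 and 848, and Soat2 from 213 and 280 to 518 and 600.

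P2rx7, Sstr5 and Chrna4, which encode a channel, a receptor and a receptor subunit, were among the 15 largest rises. P2rx7 (chr5:122643911-122691432, plus strand), an ATP-gated cation channel, measured 332 and 272 in NC against 3446 and 2991 with MS023, a log2 change of 3.41 ± 0.60 (SE; limma adjusted p = 0.012). Its level with DZNep was split, at 3848 in replicate 1 and 752 in replicate 2, and the 16 libraries of the remaining compounds lay between 57 and 863. Sstr5, a somatostatin receptor, rose from 79 and 102 to 613 and 601 (2.74, limma adjusted p = 0.039). Chrna4, a subunit of the nicotinic acetylcholine receptor, rose from 419 and 262 to 1320 and 1024 (1.81, limma adjusted p = 0.032). The MS023 libraries lay close together in these genes.

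Car6, a secreted carbonic anhydrase, measured 41 and 46 in NC against 247 and 344 with MS023 (2.72 ± 0.40, limma adjusted p = 0.0057). In the 18 libraries of the other compounds Car6 was at 2 to 106, below both MS023 libraries. Id1, an inhibitor of helix-loop-helix factors that BMP signalling sustains in ESCs, rose from 57 and 94 to 335 and 213 (1.85, limma adjusted p = 0.012). Smad6, an inhibitor of the same BMP pathway named after its values were seen, fell from 414 and 334 to 135 and 162 (-1.32, limma adjusted p = 0.022). Spred3, a brake on MAP kinase signalling, rose from 62 and 78 to 196 and 257 (1.68, limma adjusted p = 0.0051), and Tuba8, a tubulin, from 47 and 26 to 107 and 129 (1.72, limma adjusted p = 0.032). Il4i1, an amino acid oxidase, rose from 88 and 91 to 495 and 341 (2.19, limma adjusted p = 0.0057), but its exons overlap those of Nup62 and 83.4% of its 31-base stretches recur elsewhere. Gm45526 rose from 19 and 9 to 124 and 161 and had no match in the annotation used.

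**Figure D3:**
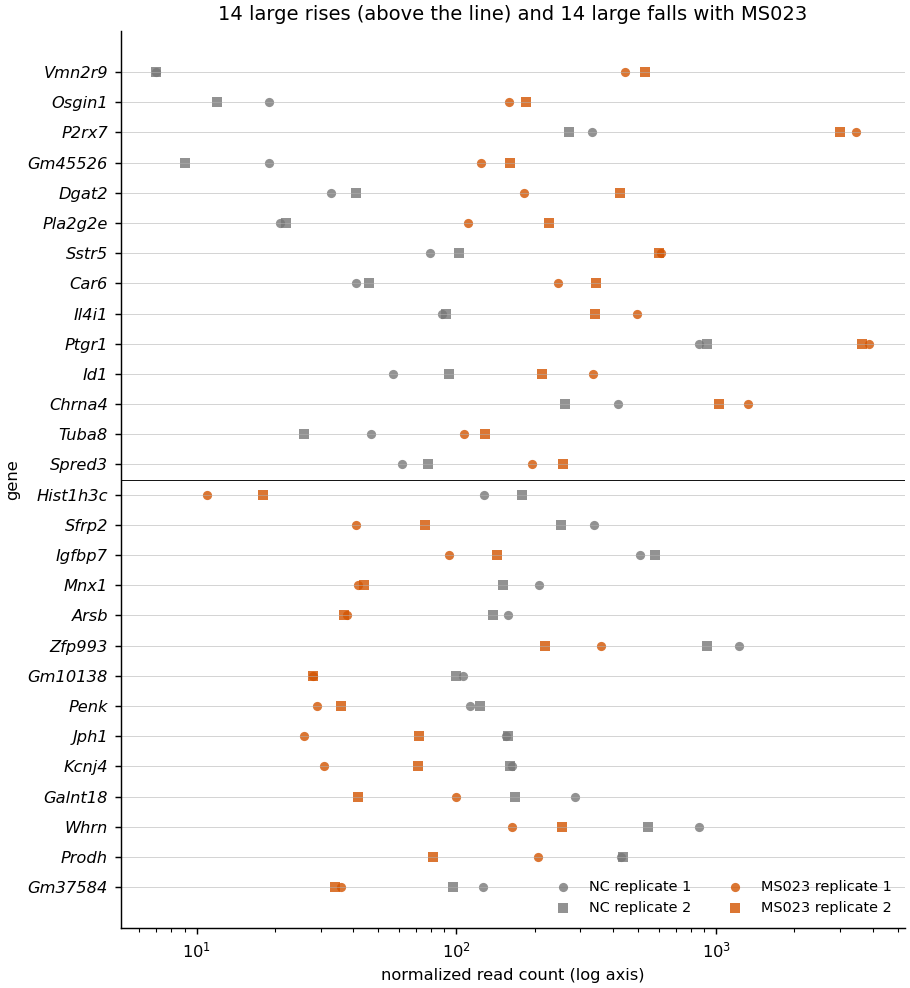
Normalized read count (log axis) in each of the 2 NC libraries (grey) and 2 MS023 libraries (orange) for 14 of the 15 largest rises, above the line, and 14 of the 15 largest falls among called genes with a group mean of at least 100. Circles are replicate 1 and squares replicate 2. In every gene both MS023 libraries lie on 1 side of both NC libraries, which the choice of these genes required and which held for all 168 called genes.

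Among falls with an NC mean of at least 100, Hist1h3c was followed by Sfrp2 and Igfbp7. Sfrp2, a secreted modulator of Wnt signalling, measured 340 and 253 in NC against 41 and 76 with MS023, a log2 change of -2.37 ± 0.41 (SE; limma adjusted p = 0.011). Igfbp7, which binds insulin-like growth factors, fell from 511 and 579 to 94 and 143 (-2.22 ± 0.35, limma adjusted p = 0.0073). Penk, the precursor of the enkephalins, fell from 113 and 123 to 29 and 36 (-1.84, limma adjusted p = 0.0074). Both libraries of each group lay close together in Igfbp7 and Penk. Met, Egfr and Irs1 were named after their values were seen. Met, the receptor of hepatocyte growth factor, fell from 145 and 161 to 40 and 66 (-1.55, limma adjusted p = 0.0040). Egfr fell from 157 and 157 to 83 and 73 (limma adjusted p = 0.015), at the edge of the 2-fold threshold, and Irs1, the insulin receptor substrate, from 72 and 62 to 16 and 23 (-1.75, limma adjusted p = 0.013).

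Prodh, which starts proline breakdown in mitochondria, measured 429 and 438 in NC against 207 and 81 with MS023 (-1.73 ± 0.29, limma adjusted p = 0.0092). The changes of Prodh with the 9 other compounds stayed within -0.17 to 0.18. Arsb, a lysosomal sulfatase, fell from 158 and 138 to 38 and 37 (-1.95, limma adjusted p = 0.0090), and 59.6% of its 31-base stretches recur in other genes. Named after their values were seen, Tkfc, a kinase of triose sugars, fell from 1061 and 1074 to 423 and 468 (-1.26, limma adjusted p = 0.00050). Atp7b, a copper exporter, fell from 108 and 87 to 19 and 21 (-2.22, limma adjusted p = 0.00074). Pex6, which recycles the peroxisomal import receptor, fell from 1645 and 1191 to 452 and 447 (-1.64, limma adjusted p = 0.0051), and Car2, a carbonic anhydrase of the cytosol, from 1306 and 1120 to 363 and 458 (-1.57, limma adjusted p = 0.011). Car2 and Car6 thus moved in opposite directions.

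Whrn, a scaffold of hair cell stereocilia, measured 860 and 547 in NC against 164 and 255 with MS023 (-1.74 ± 0.30, limma adjusted p = 0.011). Kcnj4, an inward rectifier potassium channel, fell from 164 and 161 to 31 and 71 (-1.77, limma adjusted p = 0.010), and Jph1, which ties internal membranes to the cell surface, from 155 and 158 to 26 and 72 (-1.83, limma adjusted p = 0.032). Galnt18, a glycosyltransferase, fell from 287 and 168 to 100 and 42. In Kcnj4, Jph1 and Galnt18 the MS023 libraries differed over 2-fold from each other. The tight junction genes Cldn3 and Cldn5, named after their values were seen, fell from 719 and 589 to 245 and 229 and from 182 and 116 to 46 and 47. The RNAs Gm10138 and Gm37584 fell from 106 and 100 to 28 and 28 and from 127 and 97 to 36 and 34.

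Among developmental regulators the falls were few and the core pluripotency genes were not called. Sox1, a marker and driver of neuroectoderm (chr8:12395295-12400126, plus strand), measured 742 and 514 in NC against 230 and 246 with MS023 (-1.37 ± 0.15, limma adjusted p = 0.0013). It was the 1 call among 14 neuroectoderm and neuron genes, whose median was -0.21, beside 0.585% of all genes called lower. All 9 other compounds had Sox1 below NC too (-1.52 to -0.10), and against their mean its change of -0.75 stayed under 2-fold (limma adjusted p = 0.0014). 4933439N14Rik, downstream of Sox1 on the same strand (chr8:12502899-12505341), fell from 44 and 52 to 2 and 6 (-3.41, limma adjusted p = 0.0050). Mnx1, a homeobox gene of motor neurons and pancreas, fell from 208 and 151 to 42 and 44 (-2.02, limma adjusted p = 0.049). Mnx1 did not pass against the mean of the other 9 compounds (-0.78, limma adjusted p = 0.23), and all 9 of these had it below NC, with log2 changes from -3.64 to -0.16. Sox15, a Sox factor of ESCs named after its values were seen, fell from 265 and 298 to 125 and 119 (-1.20, limma adjusted p = 0.0073).

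Zinc finger genes numbered in the Zfp series held 3 falls and no rise among 352 tested, with a median of 0.15. Zfp993 fell from 1224 and 923 to 359 and 219 (-1.92, limma adjusted p = 0.0090), with 92.0% of its 31-base stretches shared with related genes. Zfp462, which helps ESCs keep heterochromatin at lineage genes, fell from 735 and 792 to 342 and 416 (-1.01, limma adjusted p = 0.043). Zfp521, a regulator of neural commitment, fell from 155 and 96 to 61 and 40 (-1.29, limma adjusted p = 0.047). The share of called members, in either direction, was below the 0.973% of all genes.

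The 26 general and naive pluripotency genes held no call (median -0.12, from -0.73 to 0.72). Both MS023 libraries were below both NC libraries for 8 of the 26, beside 23.6% of all genes. They were above them for none, beside 21.8%. Of the 26, 2 were called lower against the mean of the other 9 compounds, beside 1.30% of all genes, and none higher. The medians of this list against NC ran from -0.07 (IOX1) to 0.17 (UNC0379) for those compounds. Nanog was at 44793 and 59405 in NC and at 35221 in both MS023 libraries (-0.55, limma adjusted p = 0.55), and Esrrb measured 28640 and 26729 in NC against 21314 and 20744 with MS023 (-0.40, limma adjusted p = 0.097). No gene was called either among 17 formative and primed genes (median -0.00), 15 of the primitive streak (-0.24), 19 of primitive endoderm (-0.40), 16 of trophoblast (0.14), 29 of the germline (0.21), 26 of the interferon response (0.31) or 27 p53 targets (0.05). Against the mean of the other 9 compounds, 5 of the 29 germline genes were called higher, beside 1.44% of all genes, and none lower. The medians of the germline list against NC ran from -0.97 (Bromosporine) to 0.56 (DZNep) for those compounds. Stra8, 1 of the 5, was below NC with all 9 of them (-4.12 to -0.98). With MS023 its change against NC was 1.22 (limma adjusted p = 0.75). The 23 genes of the 2-cell stage had a median of -0.83. It was -2.12 within number 1 and 0.00 within number 2, so that median rested on replicate number 1.

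Further lists held at most 1 call, beside 0.388% of all genes called higher and 0.585% called lower. Rpl5 was the 1 rise among 87 cytosolic ribosomal protein genes (median 0.09), from 1352 and 1697 to 3842 and 3018 (1.17, limma adjusted p = 0.0050), and 94.8% of its 31-base stretches recur in copies elsewhere. Col6a1 was the 1 rise among 33 matrix genes (median -0.29), from 1 and 1 to 48 and 28 (4.24, limma adjusted p = 0.031), so its fold rests on NC values near 0. Fn1 and Pabpc1, at the very top of the distribution, both read 221616 in each NC library. With MS023 Fn1 read 123583 and Pabpc1 123501 in each library, and neither was called. Pabpc1 read either 221616 or 123501 in all 22 libraries. Its lower value was also seen in both Garcinol and both IOX1 libraries, and in replicate 1 of Chaetocin and of UNC0379. Pcdhgb5 was the 1 rise among 23 clustered protocadherins (median 0.26), from 90 and 114 to 267 and 229 (1.28, limma adjusted p = 0.043). Polycomb complexes (28 genes, median 0.04), DNA methylation and H3K9 silencing (29, -0.04), DNA damage and repair (24, -0.10), MAP kinase feedback (26, -0.00), chaperones (26, 0.23), ribosome biogenesis (32, 0.02), the respiratory chain (79, 0.02) and mitochondrially encoded genes (15, -0.04) held none.

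**Figure D4:**
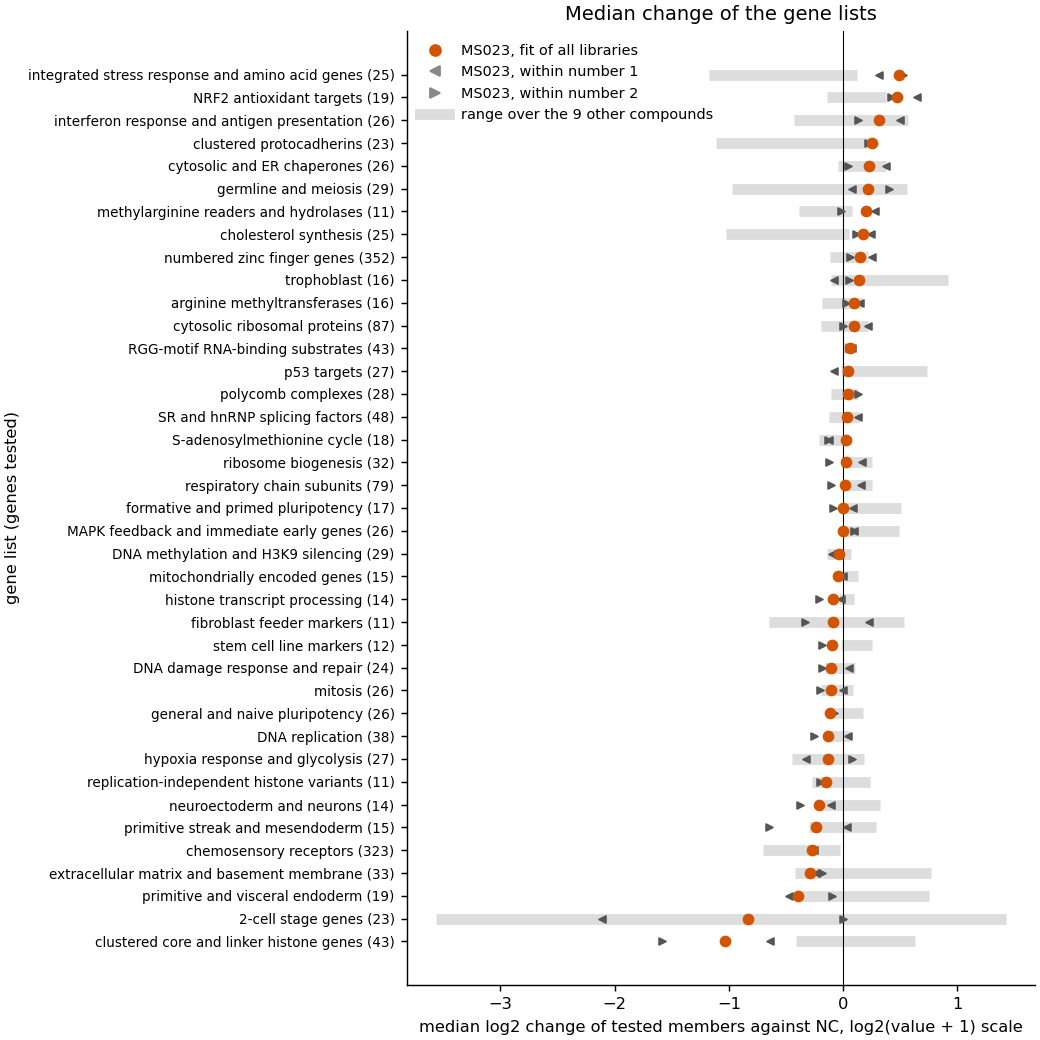
Median log2 change against NC, on the log2(value + 1) scale, of the tested members of 39 gene lists (number tested in brackets). Orange circles are MS023 in the fit of all libraries, grey triangles are the medians within replicate number 1 and number 2, and grey bars are the range over the 9 other compounds. In the fit of all libraries the clustered histone genes are at -1.04, outside the bar from -0.42 to 0.63, and the stress response and NRF2 lists lie highest at 0.49 and 0.47.

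Chemosensory receptor genes, known for their role in sensory neurons, gave 2 calls among 323 tested, both rises, beside 0.388% of all genes called higher. Both genes had values near 0 in some libraries and high ones in others. Uncalled members also switched within the MS023 group, as Olfr73 (0 and 497) and Olfr836 (735 and 0) did. Vmn2r9, a pheromone receptor gene, measured 7 and 7 in NC against 445 and 531 with MS023 (5.93 ± 0.45, limma adjusted p = 4.6e-05). CPTH2 was the 1 other compound at such a level (472 and 779), and the remaining 16 libraries lay at 3 to 8. Olfr1116, an odorant receptor gene, had a listed value of 0 in each NC library and measured 804 and 744 with MS023, but it was at 376 to 835 in 15 of the 18 libraries of other compounds and at 0 in both CPTH2 libraries and in 1 DZNep library. MS023 therefore did not stand apart in Olfr1116 (limma adjusted p = 0.48 against the other compounds). Gm5930 and Gm8011 had a listed value of 0 in each NC library too, and measured 33 and 33 and 73 and 41 with MS023.

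To see which changes did not rest on the 2 NC libraries, MS023 was also compared with the mean of the other 9 compounds in the same fit. This called 473 genes (2.74%), 248 higher (1.44%) and 225 lower (1.30%). Both comparisons called 116 genes in the same direction, which is 69.0% of the 168 and 24.5% of the 473, and both share the MS023 libraries. These were 46 of the 67 rises and 70 of the 101 falls, and none of the 168 had the opposite sign. For 50 of the 67 rises and 72 of the 101 falls, no other compound was as far from NC in that direction. These genes were chosen for their change with MS023 against NC, which favours such a result. The count therefore does not measure how particular the changes are to MS023. Each comparison with NC used the same 2 NC libraries.

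Genes called in both comparisons with the largest changes included several low ones. Gm281 measured 17 and 34 in NC and had a listed value of 0 in each MS023 library, and changes with the other compounds ran from -1.15 to 1.32. Cnr1, a cannabinoid receptor, measured 38 and 21 in NC and likewise had a listed value of 0 in each MS023 library, as did Mboat4, the enzyme that acylates ghrelin, with 19 and 20 in NC. 2310068J16Rik, antisense to Larp4, fell from 40 and 51 to 3 and 4 (-3.37, limma adjusted p = 0.0037), and Rgs6, a brake on G protein signalling, from 10 and 35 to 2 and 0. With values so low, a difference of a few units decides the fold.

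**Figure D5:**
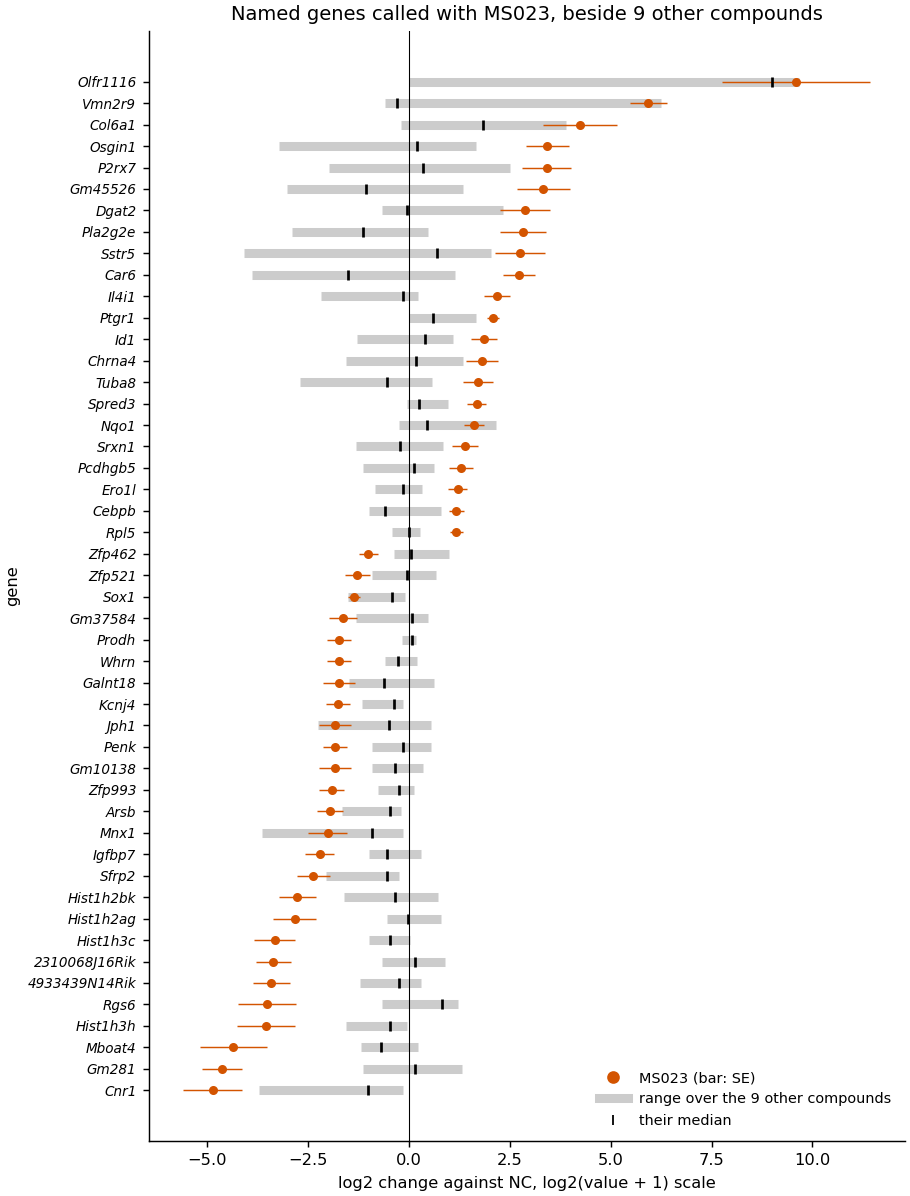
Log2 change against NC, on the log2(value + 1) scale, for 48 of the 50 called genes of the naming rule. Orange circles are MS023 with the SE of the fit as bars, grey bars span the 9 other compounds and black ticks are their median. MS023 lies outside the grey bar for most genes, and inside it for Nqo1, Vmn2r9, Olfr1116, Sox1, Mnx1 and Jph1. The genes were called for their change with MS023, which favours a place outside the bar. All 10 compounds share the 2 NC libraries.

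The called genes were lower in NC than the genes tested as a whole, and their GC content was higher. The median NC level was 121 for rises and 173.5 for falls against 494 for all genes tested, and the median GC content of their transcripts 53.2% and 52.9% against 48.7%. Median transcript lengths were 2336.5 bases for rises, 2923 for falls and 3142 for all. Protein-coding genes made up 95.5% of annotated rises, 84.7% of annotated falls and 86.7% of all annotated genes tested. The part that level or GC content plays in the calls was not tested.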

How the data were processed

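Poly(A)-selected RNA from E14 cells was sequenced in 22 libraries, and the 4 labelled MS023 and NC were compared. Per the labels and the study's methods, the authors aligned reads with Bowtie2 v2.2.5, counted with RSEM (submitters' notes name mm10) and normalized for GC content. The deposited values are a score, namely normalized read counts rounded to whole numbers, with 1 distribution in all libraries, and not raw counts. Depth is therefore unknown. Columns matched no other sample. A second deposited table of group means was not used.

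Values were fitted as log2(value + 1) with limma v3.58.1 (R v4.3.3; trend, 11 group means, 11 residual degrees of freedom) after requiring at least 10 in at least 2 of 22 libraries. Genes were called at Benjamini-Hochberg adjusted p under 0.05 and fold over 2, the thresholds of the study, whose count-based test needs raw counts. In simulated data of 17061 genes, 85 of 100 genes changed by 2 and 95 of 100 changed by 3 on the log2 scale were called. There were 4 false calls. The changed genes all had a mean level over 100, and the noise was independent between libraries, without an effect of replicate number. Changes under 4-fold, as in 48 of the 67 rises and 81 of the 101 falls, were not simulated.

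Genes named were the 15 largest rises and falls above 0 in all 4 libraries with a larger group mean of at least 100, all arginine methyltransferases and S-adenosylmethionine cycle genes, called or most changed list members, and the 10 genes most changed in both comparisons. Uncalled genes of the rule may stand only in their list's counts and range, and 2 called ones are not reported here. The libraries and the 39 lists were chosen with earlier results of these data known. Positions, GC content, length and shared 31-base stretches came from GENCODE M21 (GRCm38), matched by symbol for 97.2% of genes tested, and promoters from RefSeq, matched for 12184.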

Additional observations from a re-analysis of the deposited data

How the results depend on the processing

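With 2 libraries a group, calls depended on how the spread was estimated. MS023 against NC gave 168 calls, and gave 67 in a fit of the 4 libraries alone (6 shared with the 168), 449 against the mean of the other 10 groups in place of NC (122 shared, 51.2% higher against 39.9%), 381 with no minimum fold, and 28 to 90 with 1 of the 4 libraries left out. The fit of 4 libraries turned the balance to 61.2% higher. A pseudocount of 10 (165), no filter (164), a filter of at least 10 in all 4 libraries (148), median-ratio rescaling (156) and a robust variance prior (168) stayed within 1.5 times. Against the other 9 compounds the 473 calls became 262 without MS023 replicate 1 and 210 without MS023 replicate 2. The 529 genes over 2-fold the same way within both numbers became 301 with a pseudocount of 10. Calls that a leave-out fit gave rest on a lone library taken to vary like the other groups.

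The labels only share replicate numbers between groups. Deviations of same-numbered MS023 and NC libraries correlated at 0.116 across genes, over all 55 pairs of groups the correlation ran from 0.0535 to 0.298 (51 over 0.1), and 20 of 22 libraries were closest to one of their own number. With the replicate number as a block, 484 genes were called against NC, the 168 among them, and 709 against the other compounds. Of the 93 uncalled genes of the naming rule, 9 gained the call under the block, among them H1fx and Cth.

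Of the 50 called genes of the naming rule, 45 lost the call in the fit of 4 libraries, 43 without NC replicate 1, 36 without MS023 replicate 1, 29 without NC replicate 2, 27 without MS023 replicate 2, and 0 to 5 under each other setting. No named gene reversed. The median of the clustered histone list ran from -1.51 to -0.57, that of the NRF2 targets from 0.40 to 0.62 and that of the stress response list from 0.34 to 0.81. Unknown depth leaves the counting error of low values unknown.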
